A study of Homo sapiens with 8 samples.

Results

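NEAT1 and MALAT1 are long noncoding RNAs of the nucleus, made from neighbouring genes, and they are described here together with 7 genes for proteins that bind NEAT1 or process it: NONO, SFPQ, PSPC1, RBM14, HNRNPK, TARDBP and CPSF7. These 9 genes were chosen by symbol, out of 60606 genes in the count table, after the difference between tDR and control libraries had been seen in these same data. Their fold changes, calls and overlaps between groups are therefore given as a description, with no test. Of the 9 genes, 8 had counts and 8 were among the 17184 genes with enough counts to be tested, against 34642 genes with any count in the whole table.

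The cells were HEK293, a human embryonic kidney cell line that grows as an immortal culture, obtained from ATCC. In one group of 4 libraries, called tDR, the cells carried a synthetic copy (mimic) of the tRNA-Asp-GTC 3' tDR. Such tDRs, or tRNA-derived RNAs, are fragments of tRNAs. The other 4 libraries, called control, are from cells given a scramble mimic. Both groups received 50 nM of RNA with Lipofectamine RNAiMax and were harvested after 48 hours, so lipid transfection and a synthetic small RNA are common to all 8 libraries. The labels give no untransfected cells, and they leave unsaid whether replicates were separate cultures, so a p-value measures only how far these libraries differ, which may be technical. The title of the series links this tDR to hypoxia, kidney protection and autophagy of RNA.

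NEAT1 is the scaffold of the paraspeckle, a nuclear body that forms around its long form. A short, polyadenylated form and a long form start at the same promoter. The long form is not polyadenylated: its end is made by RNase P, which cuts in front of a tRNA-like structure, and MALAT1, an RNA of nuclear speckles, is cut in the same way. NONO, SFPQ and PSPC1 form the DBHS family, whose members pair with each other and coat NEAT1. Paraspeckles are known to form more readily in stressed cells, hypoxic ones included.

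NEAT1 lay on the plus strand at chr11:65422774-65445540 (GRCh38, GENCODE release 29). Its 22.77 kb formed a single exon block in the annotation. MALAT1 began 52.1 kb further on, at chr11:65497688-65506516, on the same strand and also as a single block. Both are annotated as lincRNA, so no part of them is coding sequence or untranslated region. The 2 tRNA-like RNAs are shown because they are the sequence feature that the 2 noncoding genes share. They lie at chr11:65445541-65445598, directly after the last base of NEAT1, and at chr11:65506117-65506173, inside MALAT1. Capitals mark GTTCNANNC, the letters of the T loop in tRNAs (N is any base).
tRNA-like RNA of NEAT1: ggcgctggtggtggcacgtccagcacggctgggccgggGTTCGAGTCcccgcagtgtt
tRNA-like RNA of MALAT1: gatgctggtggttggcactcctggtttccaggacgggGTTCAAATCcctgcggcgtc
The 2 sequences had 58 and 57 bases and matched at 41 of 61 aligned columns (67.2%). GTTCNANNC, searched on the plus strand, was present in both, and in 2.0% of 542 consecutive stretches of 58 bases cut from the long NEAT1 and MALAT1 transcripts. A match describes the letters and shows no processing in these cells.

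The other sequence that matters here is the end of the short NEAT1 RNA, where the annotated ends of 5 of the 8 NEAT1 transcripts fall. It is shown because CPSF7, HNRNPK and TARDBP are known to act on how NEAT1 is processed. The window lies on the plus strand at chr11:65426385-65426543, from the earliest of these ends to 30 bases past the latest. Capitals mark AATAAA, the usual polyadenylation signal, and TGTA, which is UGUA in RNA, the motif bound by cleavage factor I.
end of the short NEAT1 RNA: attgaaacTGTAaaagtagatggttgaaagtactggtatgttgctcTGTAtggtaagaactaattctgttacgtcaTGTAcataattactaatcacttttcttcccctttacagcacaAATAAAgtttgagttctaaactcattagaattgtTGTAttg
The window of 159 bases held 1 AATAAA and 4 TGTA, 3 of them before the AATAAA. The AATAAA begins at chr11:65426503, past all of these annotated ends but the latest, that of NEAT1-208 at chr11:65426513. Which ends it serves was not tested. Of 143 consecutive stretches of that length along the long NEAT1 RNA, 5.6% held AATAAA and 4.9% held at least 4 TGTA. Both motifs were searched on the plus strand, and neither overlaps the other in the window. The deposited counts are sums per gene, so reads of the short and the long NEAT1 cannot be told apart.

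NEAT1 stood at a higher level in each library given the tDR than in any control library. Its level was 113.4, 85.87, 103.6 and 109.6 CPM in control replicates 1 to 4, where CPM is the read count relative to the library size, scaled by the TMM method. With the tDR it was 160.8, 181.5, 200.9 and 196.6 CPM. The groups did not overlap: control replicate 2 was the lowest of all 8 libraries, and tDR replicate 1 the lowest of its group. The means were 103.1 ± 12.19 CPM (SD, n = 4) in control and 184.9 ± 18.1 CPM (SD, n = 4) with the tDR, a log2 fold change of 0.84 ± 0.06 (SE) with a 95% interval from 0.72 to 0.97, or 1.795-fold. Ranked by fold change, NEAT1 was 1147th of the 17184 genes and stood first among the 1619 genes with a mean level at least as high as its own. In bulk RNA, a change in the number of cells that hold an RNA and a change in its amount per cell cannot be told apart.

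MALAT1 did not separate the groups. It stood at 124.5, 115.0, 89.47 and 96.65 CPM in control replicates 1 to 4 and at 113.8, 113.0, 106.1 and 110.5 CPM with the tDR. All tDR values fell inside the range of the control values, which was wide because control replicates 3 and 4 lay below 1 and 2. The means were 106.4 ± 16.14 CPM in control and 110.9 ± 3.435 CPM with the tDR (SD, n = 4). The log2 fold change was 0.05 ± 0.07 (SE), with a 95% interval from -0.08 to 0.19. TALAM1, the antisense RNA of MALAT1, had between 0 and 5 counts in a library, too few to be tested.

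**Figure D1:**
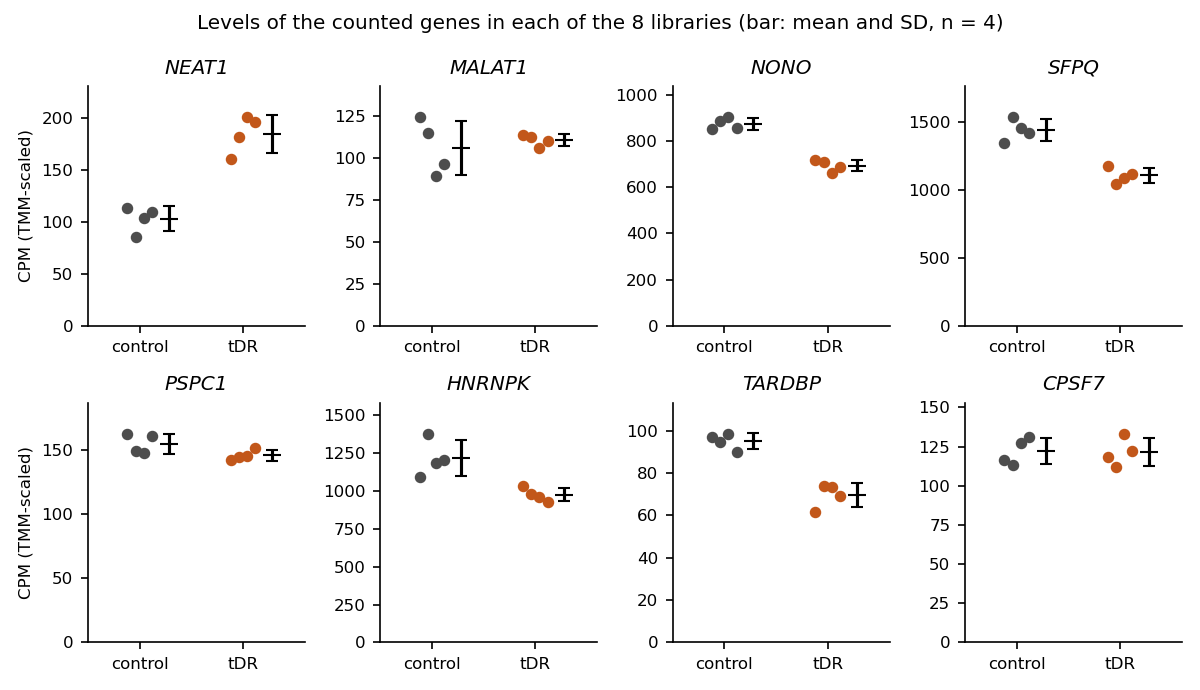
Level of 8 genes in each library, in CPM on axes that start at 0; points are control (grey) and tDR (orange) replicates 1 to 4 from left to right, and the bar beside them is the mean with its SD. The tDR libraries lie above all controls for NEAT1 and below all controls for NONO, SFPQ, HNRNPK and TARDBP, and they overlap the controls for MALAT1, PSPC1 and CPSF7.

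Among the 3 DBHS proteins, NONO and SFPQ were lower in each tDR library and PSPC1 overlapped between the groups. All positions are on GRCh38. NONO (chrX:71283192-71301168), which binds DNA and RNA and pairs with SFPQ, stood at 850.9, 888.5, 902.8 and 856.3 CPM in control and at 716.0, 711.0, 659.8 and 688.7 CPM with the tDR. Each tDR value was below each control value. The means were 874.7 ± 25.06 CPM and 693.9 ± 25.65 CPM (SD, n = 4), a log2 fold change of -0.33 ± 0.04 (SE; 95% interval -0.42 to -0.25).

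SFPQ (chr1:35176378-35193148), the splicing factor without which the long NEAT1 is not kept in paraspeckles, was the most abundant by count of the 9 genes. Its levels were 1339, 1531, 1455 and 1414 CPM in control and 1173, 1045, 1088 and 1116 CPM with the tDR. The highest tDR library, replicate 1, lay below the lowest control, also replicate 1. The means were 1435 ± 80.19 CPM and 1106 ± 53.6 CPM (SD, n = 4), and the log2 fold change was -0.38 ± 0.04 (SE; 95% interval -0.46 to -0.29).

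PSPC1 (chr13:19674752-19783019), paraspeckle component 1, is not needed for paraspeckles to form. Its levels were 162.9, 149.2, 147.6 and 160.9 CPM in control and 142.6, 144.5, 145.3 and 152.0 CPM with the tDR. In 3 of the 4 tDR libraries PSPC1 lay below the lowest control, and replicate 4 lay within the control range. The means were 155.2 ± 7.841 CPM and 146.1 ± 4.126 CPM (SD, n = 4), with a log2 fold change of -0.09 ± 0.05 (SE; 95% interval -0.20 to 0.02).

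The other 4 genes encode RBM14, which paraspeckles need to assemble, and 3 proteins that act on how NEAT1 is processed. HNRNPK (chr9:83968083-83980616) is known to hold back cleavage at the short end and so to favour the long form. It stood at 1095, 1378, 1183 and 1205 CPM in control and at 1032, 982.8, 959.5 and 927.8 CPM with the tDR. Each tDR value was below each control value, and control replicate 2 stood above the other controls. The means were 1215 ± 118.1 CPM and 975.5 ± 43.83 CPM (SD, n = 4), a log2 fold change of -0.32 ± 0.05 (SE; 95% interval -0.41 to -0.22).

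TARDBP (chr1:11012344-11026420) encodes TDP-43, which is known to favour the short, polyadenylated NEAT1. Its levels were 97.1, 94.8, 98.53 and 89.88 CPM in control and 61.8, 74.09, 73.22 and 69.31 CPM with the tDR. The groups did not overlap, and tDR replicate 1 was the lowest of all. The means were 95.08 ± 3.793 CPM and 69.6 ± 5.606 CPM (SD, n = 4). The log2 fold change, -0.44 ± 0.07 (SE; 95% interval -0.58 to -0.31), was the lowest of the 8 genes tested.

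CPSF7 (chr11:61402641-61430031) encodes a large subunit of cleavage factor I, which binds UGUA. It stood at 116.6, 113.4, 127.5 and 131.4 CPM in control and at 118.2, 112.0, 133.2 and 122.2 CPM with the tDR, and the groups overlapped over most of their range. The means were 122.2 ± 8.598 CPM and 121.4 ± 8.919 CPM (SD, n = 4), and the log2 fold change was -0.01 ± 0.06 (SE; 95% interval -0.13 to 0.11). The difference between CPSF7 and TARDBP was not tested.

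RBM14 (chr11:66616582-66627347) was listed at 0 counts in all 8 libraries, and this sets no limit on its RNA. In the annotation 99.6% of its span lies inside another gene of the table on the same strand, RBM14-RBM4, a readthrough gene that joins RBM14 to RBM4. RBM14-RBM4 had 86, 126, 63 and 132 counts in control and 75, 98, 112 and 142 with the tDR (log2 fold change 0.22 ± 0.15 SE, adjusted p = 0.318 in edgeR's quasi-likelihood test). RBM4 gave a log2 fold change of 0.04 ± 0.13 (SE; adjusted p = 0.841 in the same test). Other abundant genes were listed at 0 as well, HNRNPA1, SRSF1 and SRSF2 among them. Of 12 genes at 0 in the other lists, 7 had over 90% of their span inside other genes on the same strand. HNRNPA1 (100%) and SRSF1 (97.5%) were among these 7, and SRSF2 (3%) was not. The sources used here do not give the rule for reads in overlapping genes. Reads from the stretch that RBM14 shares with RBM14-RBM4 may have been counted for RBM14-RBM4 or left out. The values of RBM14-RBM4 and RBM4 are therefore no measure of RBM14.

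Counted together, 1 of the 8 tested genes was called higher and 4 were called lower at an adjusted p under 0.05 over all genes, where 12.8% of all tested genes were called higher and 11.4% lower. Each tDR library lay above each control for 1 of the 8, against 11.8% of all tested genes, and below each control for 4, against 10.8%. Since the 9 genes were selected on this contrast, nothing is read from these counts. The share of lower calls also moved with expression level: of the 4272 genes with a mean log2 CPM above 6, as all 8 genes have, 31.6% were called lower and 4.75% higher, with a median log2 fold change of -0.09. Above a mean log2 CPM of 7, 42.6% of 1943 genes were called lower. Over all 17184 genes the median was 0.02. All 8 genes kept their call status in all 15 alternative analyses.

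**Figure D2:**
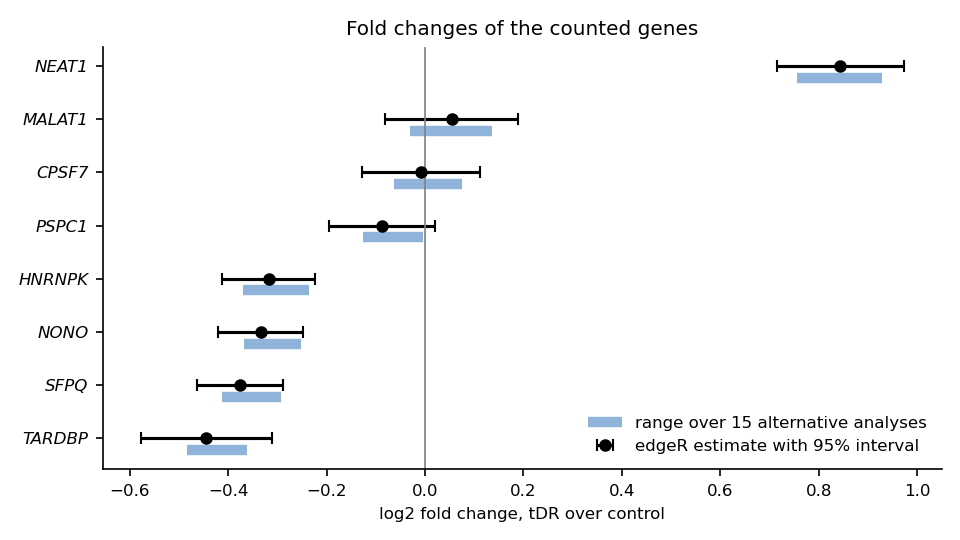
Log2 fold change of tDR over control for the 8 counted genes, with the 95% interval (black) and the range of estimates over 15 alternative analyses (blue). NEAT1 stands alone to the right at 0.84, 4 genes lie wholly below 0, and the intervals of MALAT1, CPSF7 and PSPC1 span 0.

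Values of the whole libraries stand beside these levels. Total counts per library ranged from 5848305 to 10557740 and overlapped between the groups. Counts over 381 olfactory receptor genes, odorant receptors of the nasal lining, ran from 34.97 to 45.75 CPM in control and from 57.39 to 63.37 CPM with the tDR. Spread over gene length, such reads would make up 0.344% of the NEAT1 counts in control and 0.298% with the tDR, and at most 1.81% for any of the 8 genes (PSPC1, with the tDR). Of the HEK293 markers, 9 of 9 were detected, with summed levels of 713.9 to 770.3 CPM in control and 634.1 to 686.8 CPM with the tDR. The lower sum was carried by NEFM, NEFL and LIN28B, which were called lower, while PAX2, NES and KRT8 were called higher and 3 did not pass (median log2 fold change 0.13). The summed markers of other cells were low: endothelial 5.255 to 8.105 CPM in control and 12.18 to 14.1 CPM with the tDR, fibroblast 16.09 to 20.82 and 27.08 to 30.48 CPM, podocyte and proximal tubule 1.43 to 2.202 and 4.406 to 5.033 CPM, blood 1.907 to 4.403 and 2.878 to 4.407 CPM, hepatocyte 0.1095 to 0.3178 and 0.1693 to 0.5243 CPM. The blood and hepatocyte sums overlapped between the groups, and the others did not. Of the markers of these other cells, PECAM1 (log2 fold change 1.63), CDH5 (1.28), COL1A1 (0.66) and NPHS1 (1.27) were called higher with the tDR. VWF and PTPRC did not pass, and the rest had too few counts to be tested. The olfactory receptor background would make up 108.7% of the control counts of PECAM1, 72.21% of CDH5, 1.751% of COL1A1 and 114.8% of NPHS1. HBB was at 0 counts in all control libraries and APOA1 in all tDR libraries. The part of these values in the levels of the 9 genes was not tested, apart from the subtraction of the olfactory receptor background, which is among the alternatives.

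Ratios within a library do not depend on how libraries are scaled. The ratio of NEAT1 counts to MALAT1 counts was 0.9112, 0.7468, 1.158 and 1.134 in control replicates 1 to 4 and 1.414, 1.606, 1.893 and 1.779 with the tDR. Control libraries thus had about as many counted reads of either RNA, and each tDR library had more of NEAT1. How reads in overlapping genes were counted is not given. MALAT1 reads that overlap its antisense RNA TALAM1 may therefore be missing from these ratios, also per kb. The mean ratio was 0.9875 ± 0.1952 in control and 1.673 ± 0.2091 with the tDR (SD, n = 4). Per kb of exon, with NEAT1 taken over its whole 22.77 kb, the ratio was 0.383 ± 0.07572 in control and 0.6487 ± 0.08109 with the tDR. Of the 8 annotated NEAT1 transcripts, 5 end at the short end, and NEAT1-201 spans only 3684 bases. Reads of the short form, set against its own length, would give NEAT1 a higher level per kb. Whether NEAT1 lay below MALAT1 per kb is therefore not known.

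The 3 DBHS genes were also set against each other. The ratio of SFPQ to NONO counts was 1.574, 1.723, 1.612 and 1.651 in control and 1.638, 1.469, 1.65 and 1.621 with the tDR, and the groups overlapped. The ratio of PSPC1 to NONO was 0.1914, 0.168, 0.1635 and 0.1879 in control and 0.1991, 0.2032, 0.2202 and 0.2208 with the tDR, and each tDR library lay above each control. The summed level of the 6 counted protein genes was 3898 ± 203 CPM in control and 3112 ± 87.78 CPM with the tDR (SD, n = 4). NEAT1 counts came to 2.663% ± 0.4381 of that sum in control and to 5.957% ± 0.7198 with the tDR (SD, n = 4).

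**Figure D3:**
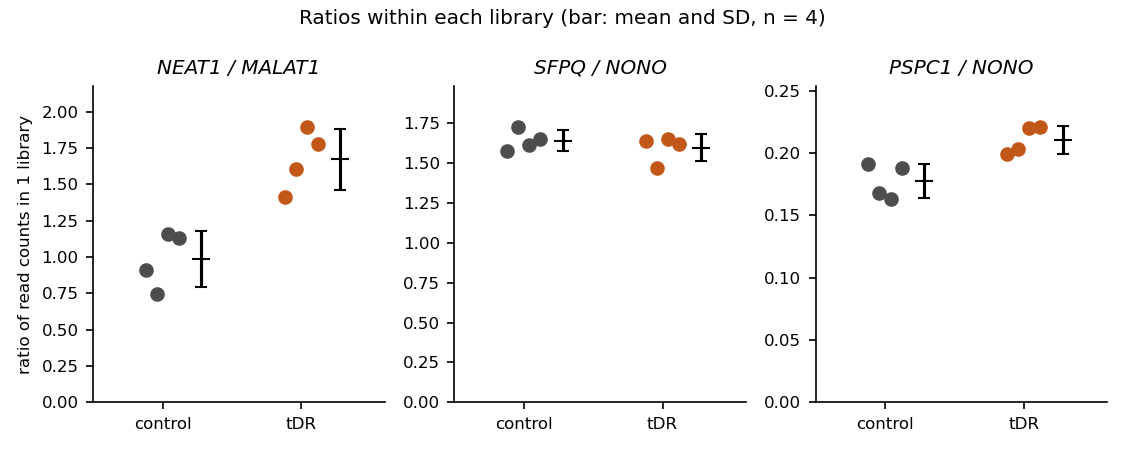
Ratios of read counts within each library, on axes that start at 0, for control (grey) and tDR (orange) replicates 1 to 4, with mean and SD. NEAT1 to MALAT1 and PSPC1 to NONO lie higher in all tDR libraries, and SFPQ to NONO overlaps.

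Levels of different genes can be compared only per length, given here first as CPM per kb of exon and then per kb of gene span. In control the order was HNRNPK (237.7), SFPQ (193.2), NONO (165.3), PSPC1 (32.21), CPSF7 (20.25), TARDBP (15.66), MALAT1 (12.05) and NEAT1 (4.53), and no gene overlapped its neighbour in that order across the 4 libraries. With the tDR the order was HNRNPK (190.8), SFPQ (148.9), NONO (131.1), PSPC1 (30.33), CPSF7 (20.11), MALAT1 (12.56), TARDBP (11.46) and NEAT1 (8.123). MALAT1 and TARDBP had changed places, and their ranges with the tDR overlapped. Per kb of exon, taken over its whole 22.77 kb, NEAT1 was last in both groups. Per kb of gene span, introns included, the control order after HNRNPK, SFPQ and NONO became MALAT1 (12.05), TARDBP (6.754), NEAT1 (4.53), CPSF7 (4.462) and PSPC1 (1.433). With the tDR it was MALAT1 (12.56), NEAT1 (8.123), TARDBP (4.944), CPSF7 (4.432) and PSPC1 (1.349), so NEAT1 lay above TARDBP. The place of the lower genes thus depends on the length used. Whether reads in introns were counted is not stated, so which length applies is not known. For NEAT1 both lengths are 22.77 kb. Reads of its short form, set against a shorter length, would give it a higher level, so its place is not known.

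The paraspeckle holds many proteins besides the 7 above, and a list of 28 others was read across the same libraries. Of these, 25 were tested: 13 fell, 1 rose and 11 did not pass, with a median log2 fold change of -0.19. Over all genes tested 11.4% were called lower and 12.8% higher, and the median was 0.02. Several that fell are hnRNPs, abundant proteins that package nuclear RNA. HNRNPM had 799.8, 792.9, 743.1 and 732.7 CPM in control and 637.6, 610.4, 582.5 and 593.3 CPM with the tDR, a log2 fold change of -0.34 ± 0.04 (SE; edgeR adjusted p = 3.57e-08). HNRNPR fell by 0.32 ± 0.05 on the log2 scale (edgeR adjusted p = 3.56e-07). HNRNPH3, known to be needed for paraspeckles, had 193.2, 251.9, 209.3 and 210.6 CPM in control and 164.4, 173.4, 166.3 and 154.9 CPM with the tDR, a fall of 0.39 ± 0.06 on the log2 scale (edgeR adjusted p = 5.59e-07). RBMX, a splicing regulator, fell by 0.31 ± 0.05 on the log2 scale (edgeR adjusted p = 6.82e-07). In each of these 4 genes the tDR libraries lay below every control library. That pattern held for 10.8% of all tested genes, and these 4 were picked for the smallest p.

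The 1 gene of that list that rose was AHDC1, a DNA-binding protein, which is outside the naming rule and was picked after its values were seen. It had 47.62, 50.4, 50.06 and 66.2 CPM in control and 64.84, 61.35, 77.24 and 70.04 CPM with the tDR, a log2 fold change of 0.35 ± 0.08 (SE; edgeR adjusted p = 0.00133), and control replicate 4 overlapped the tDR range. Of the 3 genes not tested, HNRNPA1 and RBM12 were at 0 counts with their whole spans inside other genes of the table on the same strand, like RBM14. The counts of this list stand beside the 31.6% of genes called lower at a mean log2 CPM above 6 and 42.6% above 7. Its tested genes ran from a mean log2 CPM of 2.73 (RUNX3) to 9.54 (HNRNPH1). The list was not compared with genes of the same level.

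**Figure D4:**
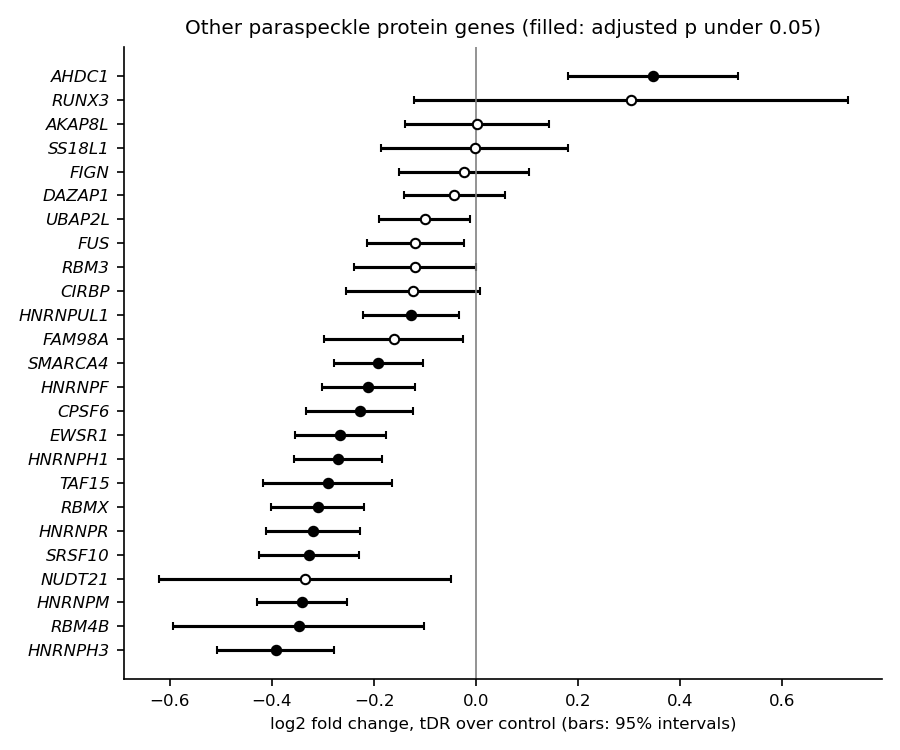
Log2 fold change of tDR over control for the 25 tested genes of other paraspeckle proteins, with 95% intervals; filled points passed an adjusted p under 0.05. The 13 filled points below 0 reach from HNRNPUL1 to HNRNPH3, and AHDC1 is the filled point above 0.

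Proteins of the nuclear speckle, the compartment of MALAT1, come from abundant mRNAs. Of 10 genes tested, 8 fell, 0 rose and 2 did not pass, with a median log2 fold change of -0.22. Over all tested genes 11.4% were called lower, and 42.6% of those with a mean log2 CPM above 7, where all 10 lie; the list was not compared with genes of the same level. SRRM1, a splicing coactivator, had 540.1, 539.2, 556.1 and 553.2 CPM in control and 479.3, 463.6, 443.1 and 426.6 CPM with the tDR, a log2 fold change of -0.27 ± 0.04 (SE; edgeR adjusted p = 5.79e-06). SRSF3, an SR protein of splicing, fell by 0.27 ± 0.05 on the log2 scale (edgeR adjusted p = 3.29e-05). PNN fell by 0.22 ± 0.04 (edgeR adjusted p = 1.03e-04) and ACIN1 by 0.23 ± 0.05 (edgeR adjusted p = 2.14e-04), both on the log2 scale. Both act with the exon junction complex on spliced RNA. SRSF1, SRSF2 and DDX39B were at 0 counts and not tested.

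Next come the factors that cut and polyadenylate mRNA, and with it the short NEAT1. Of 13 tested, 4 fell, 0 rose and 9 did not pass, with a median log2 fold change of -0.14. Over all tested genes 11.4% were called lower, and 31.6% of those with a mean log2 CPM above 6, so the count is no result about this list. CPSF2, a subunit of the cleavage complex, fell by 0.29 ± 0.06 on the log2 scale (edgeR adjusted p = 1.12e-04). CPSF3, the nuclease of the complex, fell by 0.23 ± 0.06 (edgeR adjusted p = 0.0029) and PAPOLA, the poly(A) polymerase, by 0.19 ± 0.05 (edgeR adjusted p = 0.0023), on the same scale. CPSF6, which like CPSF7 is a large subunit of cleavage factor I, had 230.1, 200.1, 232.3 and 212.1 CPM in control and 187.8, 177.8, 191.3 and 188.9 CPM with the tDR (log2 fold change -0.23 ± 0.05 SE, edgeR adjusted p = 8.06e-04). CPSF6 also counts among the other paraspeckle proteins, as does NUDT21, the small subunit, at -0.34 ± 0.14 (SE; edgeR adjusted p = 0.0789). NUDT21 is outside the naming rule and was added after its value was seen, to complete cleavage factor I. CPSF3, PAPOLA and CPSF6 each lost their call in 1 of 15 alternatives: CPSF3 (adjusted p = 0.0608) and PAPOLA (0.0923) with scaling by library size alone, and CPSF6 (0.0503) with the length and GC correction. NUDT21, CPSF6 and CPSF7, the subunits of cleavage factor I, gave log2 values of -0.34, -0.23 and -0.01, and the differences between them were not tested.

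The enzymes that make the tRNA-like ends of NEAT1 and MALAT1, RNase P and the tRNA 3' nuclease ELAC2, gave 1 call. Of 10 tested, 1 fell, 0 rose and 9 did not pass, with a median log2 fold change of -0.17, and the share of lower calls was near the 11.4% over all tested genes. POP7, a subunit of RNase P, gave -0.23 ± 0.09 (SE; edgeR adjusted p = 0.0446), and this call was lost in 9 of 15 alternatives. In 6 of them 1 library was left out, control or tDR replicate 2, 3 or 4, and the edgeR adjusted p was between 0.0523 and 0.165. The POP7 estimate over the 15 alternatives ran from -0.29 to -0.14. ELAC2 gave -0.14 ± 0.05 (SE; edgeR adjusted p = 0.0555) and passed in 5 of the 15, among them those without control replicate 1 (0.00309) and without tDR replicate 1 (0.0246). POP5 gave -0.28 ± 0.13 (SE; edgeR adjusted p = 0.097) and RPP30 gave -0.16 ± 0.08 (SE; edgeR adjusted p = 0.134). Both tRNA-like RNAs shown above had 0 counts in all libraries. They have 58 and 57 bases, and the one of MALAT1 lies inside MALAT1 on the same strand. The rule for overlapping genes is not given, and whether RNAs this short were captured is not known. These 0 counts therefore set no limit on either RNA.

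Other long noncoding RNAs and the transcription factors reported at the NEAT1 gene gave 1 call in each list, where 12.8% of all tested genes were called higher and 11.4% lower; neither count stands apart from those shares. Of 14 well-known long noncoding RNAs, 6 were tested, 1 rose and 5 did not pass, with a median log2 fold change of 0.10. NORAD, a cytoplasmic RNA that binds Pumilio proteins, had 140.3, 154.4, 147.5 and 148.4 CPM in control and 165.7, 170.5, 170.3 and 162.2 CPM with the tDR. Its log2 fold change was 0.18 ± 0.05 (SE; edgeR adjusted p = 0.00924), and it lost its call when no filter on low counts was used (adjusted p = 0.0733). HOTAIR gave 0.32 ± 0.15 (SE; edgeR adjusted p = 0.122), LINC-PINT 0.17 ± 0.08 (SE; edgeR adjusted p = 0.129) and TUG1 0.04 ± 0.07 (SE; edgeR adjusted p = 0.733). In size of fold change NEAT1 stood above all 6, and no difference between it and them was tested.

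Of 11 transcription factors, all tested, 1 fell, 0 rose and 10 did not pass, with a median log2 fold change of 0.05. The list holds HIF1A, EPAS1 and ARNT, the subunits of the hypoxia-inducible factors, and none of the 3 passed. Their log2 values were -0.09, 0.12 and 0.10 (edgeR adjusted p = 0.732, 0.284 and 0.197). These 3 are outside the naming rule and were added after their values were seen, because the title of the series names hypoxia. ATF2 gave -0.17 ± 0.07 (SE; edgeR adjusted p = 0.0477), and 11 of 15 alternatives lost that call, with an adjusted p of 0.0682 to 0.125 when control replicate 1, 3 or 4 or tDR replicate 2, 3 or 4 was left out. Its estimates over these alternatives ran from -0.25 to -0.07. RELA, a subunit of NF-kB, gave 0.18 ± 0.07 (SE; edgeR adjusted p = 0.0626), and passed without tDR replicate 1 (adjusted p = 0.0425). BRCA1 gave -0.10 ± 0.05 (SE; edgeR adjusted p = 0.148) and HSF1, the heat shock factor, -0.12 ± 0.06 (SE; edgeR adjusted p = 0.172).

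The genes around the NEAT1 and MALAT1 pair give its setting on the chromosome. Within 250 kb of the pair lay 44 other genes of the table, of which 21 were tested: 4 rose, 0 fell and 17 did not pass, with a median log2 fold change of 0.15. Over all tested genes 12.8% were called higher and 11.4% lower, and the neighbours were not tested against that share. EHBP1L1, a protein of vesicle transport, had 6.24, 5.015, 5.085 and 6.188 CPM in control and 11, 11.78, 12.05 and 8.073 CPM with the tDR, a log2 fold change of 0.91 ± 0.19 (SE; edgeR adjusted p = 2.79e-04). SIPA1, a regulator of Rap GTPases, rose by 0.41 ± 0.11 on the log2 scale (edgeR adjusted p = 0.00555), and with a correction for length and GC its adjusted p was 0.0539. CAPN1, the protease calpain 1, rose by 0.31 ± 0.08 (edgeR adjusted p = 0.00274), and MAP3K11, a kinase of the JNK pathway, by 0.23 ± 0.08 (edgeR adjusted p = 0.0322). The call of MAP3K11 was lost in 8 of 15 alternatives, over which its estimate ran from 0.13 to 0.32, and its adjusted p was 0.0561 to 0.172 without control replicate 1, 3 or 4 or tDR replicate 1 or 3. In each of the 4 genes that rose, the tDR libraries lay above every control library. That pattern held for 11.8% of all tested genes, and these 4 were picked as called higher.

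Most other neighbours gave smaller values than NEAT1. FRMD8, the nearest protein gene before NEAT1 with a mean log2 CPM above 2, stood at 0.16 ± 0.09 (SE; edgeR adjusted p = 0.193). At such levels, LTBP3 (0.15), PCNX3 (0.14), KAT5 (0.15), DPF2 (-0.10), ZNRD2 (-0.13) and RNASEH2C (-0.14) had adjusted p-values between 0.137 and 0.618 in edgeR's test. PCNX3 passed without control replicate 3 (adjusted p = 0.0495) and RNASEH2C without control replicate 1 (adjusted p = 0.0168). The unnamed gene ENSG00000285816 stood at -0.42 ± 0.23 (SE; edgeR adjusted p = 0.187). The other neighbours had a mean log2 CPM of 2 or less and wide intervals: SLC22A20P, TIGD3, SLC25A45, ZNRD2-DT, FAM89B, RELA-DT and ENSG00000255557 lay between -0.42 (ENSG00000255557) and 0.72 (SLC22A20P), and none passed.

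**Figure D5:**
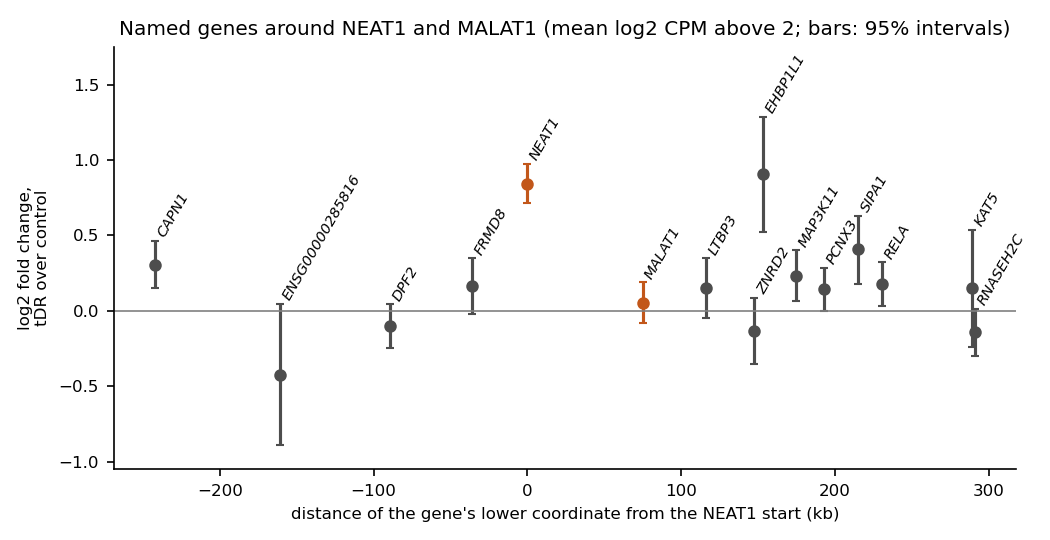
Log2 fold change of tDR over control, with 95% intervals, for the named genes around NEAT1 and MALAT1 with a mean log2 CPM above 2, by distance in kb from the lower coordinate of NEAT1. NEAT1 (0.84) and EHBP1L1 (0.91) stand above the rest, and MALAT1 (0.05) and FRMD8 (0.16), closer to NEAT1 than EHBP1L1 is, have lower values.

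Genes whose profile over the 8 libraries came nearest that of NEAT1 were sought among 12440 genes with a symbol and a mean log2 CPM above 2. Nearness was the root mean square difference of log2 CPM after each gene's own mean was taken off, so it is a description with no test. The nearest were EVC2 (0.07), SHANK2 (0.11), CELF4 (0.12), ABCA4 (0.12) and LRMDA (0.14). All had lower levels than NEAT1: SHANK2 had 18.73 ± 0.609 CPM in control and 32.49 ± 3.725 CPM with the tDR (SD, n = 4). The background estimated from olfactory receptor genes differs more. With the tDR it came to 73.63% of the counts of EVC2, 58.26% of SHANK2 and 23.86% of CELF4. It came to 42.17% of ABCA4 and 39.69% of LRMDA, against 0.298% of NEAT1. These shares are rough, because the same estimate exceeds the counts of some genes, such as PECAM1 in control (108.7%). Nearest to MALAT1 were SMIM10L1 (0.05), PCMTD2 (0.06) and IPMK (0.06). Like those of MALAT1, all their tDR values lay inside the control range, which follows from choosing them for likeness to it.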

How the data were processed

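The counts that the authors deposited are whole numbers per gene, not normalized, in 1 table with a column for each of 8 libraries. RNA was isolated with TRIzol and sequenced from a SMARTer stranded kit for low input of total RNA (Pico, v2), per the labels' protocols. The submitters' processing notes name STAR 2.7.8a and featureCounts 2.0.2. Their settings, and the rules for overlapping genes and strands, are not stated in the labels or the file. Positions, lengths and sequences come from GENCODE release 29 on GRCh38, which matched 57026 of 60606 genes.

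The members, the other gene lists and the tests were chosen with earlier results of these data known. The test was edgeR 4.0.16's quasi-likelihood F test in R 4.3.3, with all 8 libraries in 1 fit, group as its single term, TMM scaling and edgeR's filter on low counts, which left 17184 genes. Calls needed a p under 0.05 after Benjamini-Hochberg adjustment over all of them, which gave 2206 higher and 1962 lower. Values are mean ± SD of 4 libraries, and log2 fold changes have their SE. Simulated counts with known changes were used to test the script. Replicate numbers did not pair the libraries (correlations from -0.029 to 0.07). Alternatives were other scalings, DESeq2 1.42.0, no filter, a replicate block, a length and GC correction, subtraction of a background estimated from olfactory receptor genes, and each library left out. Named are all 9 members, up to 4 genes per list with the smallest p, the tested neighbours and the genes nearest in profile; 1 neighbour is not reported here. AHDC1, NUDT21, HIF1A, EPAS1 and ARNT were added after their values were seen. Depth ranged from 5848305 to 10557740 counts, and no column of the table was left out.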

Additional observations from a re-analysis of the deposited data

How the results depend on the processing

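All 8 tested members kept their call status in all 15 alternatives. NEAT1 ranged from 0.76 to 0.93 on the log2 scale, MALAT1 from -0.03 to 0.14, NONO from -0.37 to -0.25, SFPQ from -0.41 to -0.29, PSPC1 from -0.13 to -0.004, HNRNPK from -0.37 to -0.23, TARDBP from -0.48 to -0.36 and CPSF7 from -0.06 to 0.08. Scaling by library size alone moved the median of all genes from 0.02 to 0.10, and the calls from 2206 higher and 1962 lower to 3295 higher and 907 lower. It also raised the higher calls over the other lists from 2 to 7. With the background subtracted, 1118 genes were higher and 1093 lower. The replicate block, tried although the numbers pair nothing, gave 2040 higher and 1834 lower. Of the other paraspeckle proteins 11 to 17 fell and 1 rose over the alternatives, and of the nuclear speckle proteins 7 to 8 fell. Of the cleavage and polyadenylation factors 2 to 7 fell (4 in the analysis reported), of the tRNA-like end processing genes 0 to 2 (1), and of the transcription factors 0 to 1 fell (1) and 0 to 3 rose (0). Of the other long noncoding RNAs 1 to 3 rose (1). The cause of these shifts was not tested. With 4 libraries in a group, a difference smaller than the intervals given for each gene could not be seen, and RBM14 gave no value.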
